A study of Mus musculus with 9 samples.

Results

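Hspa5, Hsp90b1, Pdia3, Pdia4, Pdia6, Calr, Canx, Sdf2l1, Manf and Herpud1 encode chaperones, folding enzymes and stress response proteins of the endoplasmic reticulum (ER), the compartment in which secreted and membrane proteins fold. They were taken by name from a table of read counts for 25361 genes. All 10 were present in the table, and all 10 were among the 9009 genes abundant enough to be tested. Transcripts were counted in cells that CD8a magnetic beads recovered from tumours of MC38, a mouse colon carcinoma line, grown under the skin and removed after 21 days. The mice were wild-type C57BL/6N males in 3 groups of 3 libraries each. The aged restricted group was 20 months old and received 70% of the food that freely fed mice ate. The aged ad libitum group was 20 months old and fed freely, and the young ad libitum group was 5 months old and fed freely. Freely fed aged mice against freely fed young mice addresses age, restricted against freely fed aged mice addresses diet, and restricted aged against young mice changes both. Each group serves in 2 of the 3 comparisons, so these are not independent of each other. The labels name no young restricted group, and do not say whether a library came from 1 mouse or a pool, or at what age restriction began.

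Proteins enter the ER unfolded and are handed along a chain of helpers. BiP (Hspa5) and GRP94 (Hsp90b1) hold exposed hydrophobic stretches, calnexin (Canx) and calreticulin (Calr) bind newly added sugars, and the protein disulfide isomerases Pdia3, Pdia4 and Pdia6 form and rearrange disulfide bonds. When unfolded protein accumulates, the sensors IRE1, PERK and ATF6 start the unfolded protein response, which raises transcription of many of these genes. In lymphocytes this machinery is best known from antibody-secreting plasma cells, and calreticulin and Pdia3 also help load peptides onto MHC class I molecules.

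The response acts partly through short promoter elements, which are shown because several of the genes share them. The elements were first defined on genes of this kind, so their presence here is a description and no separate finding. The ER stress response element (ERSE), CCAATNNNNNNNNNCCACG, is bound by NF-Y at its left end and by ATF6 or XBP1 at its right end. It was searched on both strands in RefSeq promoter windows of GRCm38.p6, which run from 250 bases before to 50 bases after the start of transcription. Promoters of 9 of the 10 genes matched the RefSeq table, and the exception was Manf. The ERSE was found in 5 of these 9 windows (Hspa5, Hsp90b1, Pdia6, Calr and Canx), and in 39 of all 32851 promoter windows (0.119%). ERSE-II, ATTGGNCCACG, was found in the Herpud1 window and in 12 of all windows (0.0365%). The core of the XBP1 element, TGACGTGG, was found in 0 of the 9 windows and in 222 of all windows (0.676%). No ERSE overlapped another match in these windows. A match is no evidence of binding. The stretches that hold the elements are printed 5′ to 3′ on the strand of the gene, with the fixed letters of each element in capitals. An element that lies on the opposite strand reads as its reverse complement.
Hspa5 (chr2:34772005-34772063, plus strand): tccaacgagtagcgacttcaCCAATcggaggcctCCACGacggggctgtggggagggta
Hsp90b1 (chr10:86705513-86705676, minus strand): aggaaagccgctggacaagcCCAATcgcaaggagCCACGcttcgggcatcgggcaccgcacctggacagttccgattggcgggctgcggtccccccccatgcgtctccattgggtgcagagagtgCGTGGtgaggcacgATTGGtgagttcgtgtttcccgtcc
Pdia6 (chr12:17266471-17266529, plus strand): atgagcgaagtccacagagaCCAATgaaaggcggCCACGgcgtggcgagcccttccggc
Calr (chr8:84847055-84847113, minus strand): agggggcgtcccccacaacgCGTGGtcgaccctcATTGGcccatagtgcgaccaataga
Canx (chr11:50325780-50325838, minus strand): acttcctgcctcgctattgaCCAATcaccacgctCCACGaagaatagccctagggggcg
Herpud1 (chr8:94386357-94386407, plus strand): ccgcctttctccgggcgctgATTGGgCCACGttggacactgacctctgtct

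The Hspa5 element ends 47 bases before the RefSeq start of transcription, and the Herpud1 element 42 bases before its own. GENCODE M21 begins the Hspa5 gene farther upstream, at chr2:34771970, so the printed Hspa5 stretch lies inside the gene as marked there. Hsp90b1 carries 2 elements, of which the farther one begins 212 bases before the start and the nearer one lies on the opposite strand. The Calr element also lies on the opposite strand. Pdia3, Pdia4 and Sdf2l1 had none of the 3 elements in their windows. The Pdia4 window lies wholly upstream of the gene as GENCODE M21 marks it. Its last bases, unlike those of the other windows, matched no GENCODE transcript of the gene, so its result is less certain.

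**Figure D1:**
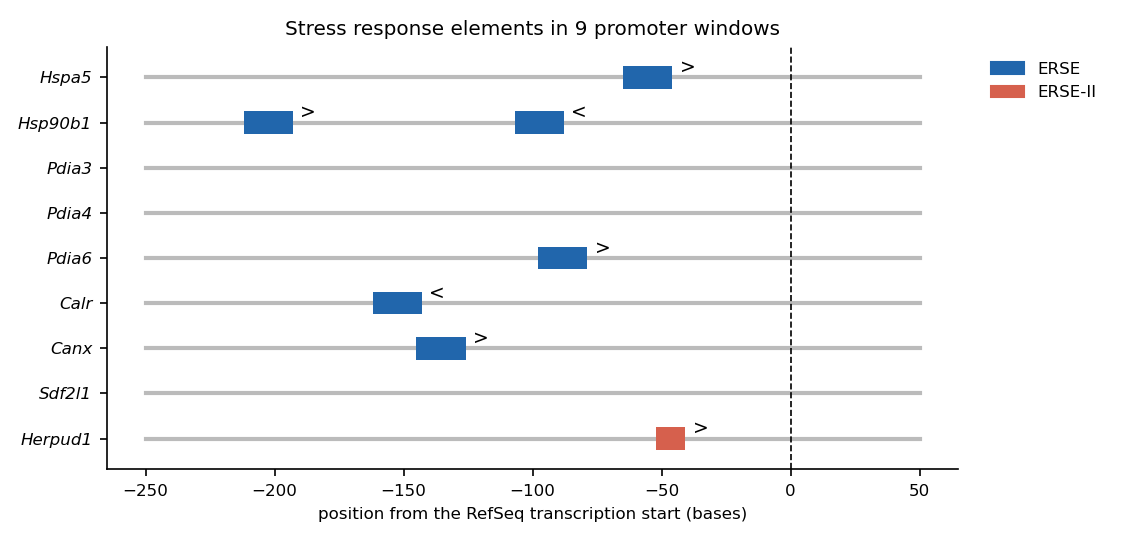
Positions of the stress response elements in the 9 promoter windows, in bases from the RefSeq start of transcription (dashed line). Each grey line is a window of 300 bases, boxes are ERSE or ERSE-II matches, and the arrow gives the strand relative to the gene; 6 of the 9 windows hold a match.

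Library totals ran from 810662 to 1258575 counts, and mitochondrially encoded genes took from 23.53% to 45.67% of them. The aged ad libitum libraries were the smallest, at 908514, 818450 and 810662 counts, beside 1091933 or more in every other library. The part of this difference in depth in the results was not tested. Over all 9009 tested genes, 26 passed the test for age, 85 for diet and 175 for restricted aged against young mice. Calls were split 13 higher and 13 lower for age, 62 higher and 23 lower for diet, and 100 higher and 75 lower for restricted aged against young mice. With library totals in place of TMM scaling, these splits became 12 higher and 7 lower, 37 higher and 13 lower, and 81 higher and 36 lower. The cells were labelled CD8+ T cells, but 12 T cell markers summed to 192–450 CPM in aged restricted, 130–377 CPM in aged ad libitum and 60.4–231.5 CPM in young libraries. At least 9 of the 12 were detected in each library. A list of 12 macrophage markers summed to 6067–10460 CPM, 2261–5140 CPM and 3648–3779 CPM in the same groups. Markers of skin keratinocytes (8 genes) summed to 167–449 CPM in aged restricted, 41.7–75 CPM in aged ad libitum and 0.827–6.44 CPM in young libraries, and those of skeletal muscle (8 genes) to 59.7–322 CPM, 15.3–56.6 CPM and 4.13–16.1 CPM. In the same order of groups, red blood cell markers (5 genes) summed to 137–471, 45.5–88.5 and 0–7.44 CPM, and neutrophil markers (6 genes) to 44.6–113, 9.39–36.9 and 3.54–6.61 CPM. Endothelial markers (9 genes) were highest in the aged ad libitum libraries, at 67.6–271 CPM in aged restricted, 240–551 CPM in aged ad libitum and 81.3–134 CPM in young libraries. The part of these cell types in the results was not tested. A list of 7 plasma cell markers summed to 83.3–110.3 CPM in aged restricted, 59–104 CPM in aged ad libitum and 50.4–84.6 CPM in young libraries, with 3 to 5 genes detected in each and Mzb1 and Tnfrsf17 at 0 counts in all 9. Only 3 of the 7 were abundant enough to be tested. The list includes Xbp1, which is also a factor of the unfolded protein response, so the sum does not measure plasma cells alone. Lower RNA per cell and fewer cells of a type cannot be told apart in such bulk samples, so every level below is over all recovered cells.

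None of the 10 genes passed the test in any of the 3 comparisons. With edgeR's quasi-likelihood test and Benjamini-Hochberg adjustment over all tested genes, 0 of 10 were called for age, where 0.289% of all tested genes were called. The counts were also 0 of 10 for diet, against 0.944% of all genes, and 0 of 10 for restricted aged against young mice, against 1.94%. At those shares a list of 10 genes would hold few or no calls, so the counts do not set these genes apart. The DESeq2 Wald test called 0 of the 10 in each comparison too. Unadjusted p-values were under 0.05 for 1 gene in the age comparison (Pdia6), 2 in the diet comparison (Pdia4 and Sdf2l1) and 1 in restricted aged against young mice (Manf). Over all genes the numbers at that level were 933, 1058 and 1045.

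The values leaned lower with age. Fitted log2 fold changes of aged against young ad libitum mice were below 0 for 8 of the 10 genes, with a median of -0.29, beside -0.0014 over all tested genes. All 3 aged ad libitum libraries lay below all 3 young ones for 5 of the 10 (Hspa5, Pdia6, Calr, Sdf2l1 and Herpud1), a pattern that 8.58% of all tested genes had. The opposite pattern was seen in 0 of the 10 and in 7.4% of all genes. With library totals the 5 became 3 (Hspa5, Pdia6 and Sdf2l1), and with DESeq2 size factors they became 4, without Calr. The opposite count of 0 became 1 under each of these scalings, Hsp90b1 with library totals and Pdia4 with DESeq2 size factors. The 10 genes share libraries and scaling factors, so they are not 10 separate observations.

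Diet showed no common direction. In restricted against ad libitum aged mice 5 genes were fitted lower and 5 higher, with a median of 0.13, beside 0.000406 over all genes. With library totals 3 were lower and 7 higher. Groups did not overlap for Pdia4, which was lower in all 3 restricted libraries (8.47% of all genes were), and for Pdia6 and Sdf2l1, which were higher (9.26% of all genes were). With library totals the groups of Pdia4 and Pdia6 overlapped, and with DESeq2 size factors Hsp90b1 was also lower in all 3 restricted libraries, which made 2 genes. In restricted aged against young mice 8 genes were fitted lower and 2 higher, with a median of -0.189, beside 0.0163 over all genes. Manf alone was lower in all 3 restricted libraries than in all 3 young ones (9.26% of all genes were), and 0 of the 10 were higher in all 3 (9.82% of all genes were).

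**Figure D2:**
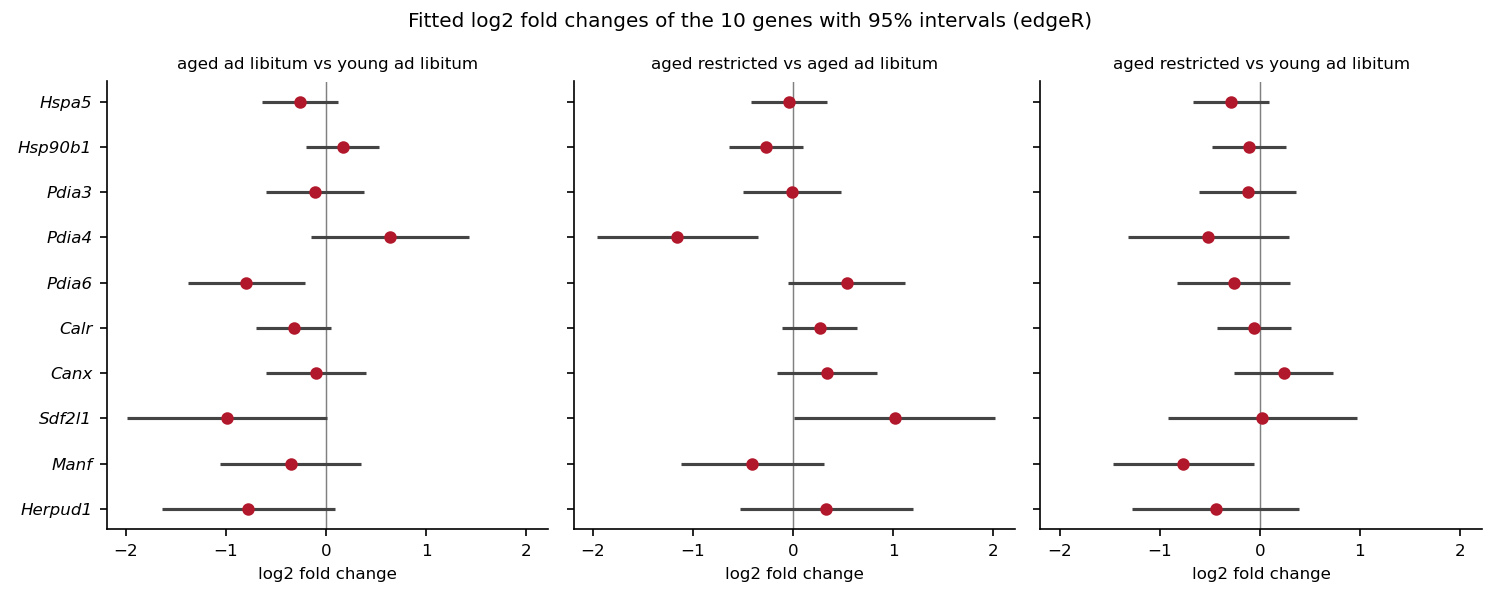
Fitted log2 fold changes of the 10 genes in the 3 comparisons (points) with 95% intervals (bars) from edgeR, the first-named group over the second. Pdia4, Pdia6, Sdf2l1 and Manf are the genes with an interval that leaves out 0 in one comparison, before adjustment.

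Summed over the 10 genes, transcripts stood at 2258, 2745 and 2278 CPM in aged restricted libraries, 2442, 2479 and 2320 CPM in aged ad libitum libraries and 2690, 2732 and 2714 CPM in young libraries. With TMM scaling all 3 aged ad libitum sums lay below all 3 young ones, while aged restricted replicate 2 lay above them. As shares of unscaled library totals, aged ad libitum and young libraries overlapped. The shares were 0.2642%, 0.2259% and 0.2328% in aged ad libitum and 0.2666%, 0.2751% and 0.2531% in young libraries. The TMM-scaled means were 2427 ± 276 CPM in aged restricted, 2414 ± 83.2 CPM in aged ad libitum and 2712 ± 21.1 CPM in young mice (SD, n = 3 each). Without Hspa5 the aged restricted sums were 1664, 1819 and 1732 CPM, against 1823, 1877 and 1906 CPM in young mice.

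Aged restricted replicate 2 stands apart within its group. It had the lowest mitochondrial share (23.53%), the highest sum of 9 fibroblast markers (1940 CPM, beside 813 and 690.1 CPM in replicates 1 and 3) and the lowest macrophage sum (6067 CPM, beside 10460 and 8680 CPM). It also had the highest Hspa5, Hsp90b1, Pdia3, Pdia4, Pdia6, Canx, Manf and Herpud1 levels and the lowest Calr and Sdf2l1 levels of the 3 restricted libraries. The part of these marker levels in the gene values was not tested. Without this library the median log2 fold change of the 10 was -0.064 for diet (5 lower and 5 higher) and -0.355 for restricted aged against young mice (7 lower and 3 higher). Those of the 10 genes whose call turns on it are given below with and without it.

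Levels are counts scaled by TMM to a common library size (CPM). The method reads the 3′ end of each transcript, with no length correction, so levels are compared between groups and not between genes. Fold changes are log2 values with the standard error of the fit, and the adjusted p in each case is that of edgeR over all 9009 genes.

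The HSP70 chaperone BiP, from Hspa5 (chr2:34771970-34777547, GRCm38, plus strand), binds unfolded chains and holds the stress sensors inactive until it is drawn away. Hspa5 stood at 593.5, 926 and 546 CPM in aged restricted libraries, 668, 704 and 745 CPM in freely fed aged libraries and 867, 854.5 and 808 CPM in young libraries. All freely fed aged libraries were lower than all young ones, and 2 of the 3 restricted libraries were lower still. The log2 fold change with age was -0.26 ± 0.185 (SE), with a 95% interval from -0.64 to 0.12 (edgeR adjusted p = 0.687). With diet it was -0.03 (95% interval -0.41 to 0.35, edgeR adjusted p = 0.968), and in restricted aged against young mice -0.29 (-0.67 to 0.088, edgeR adjusted p = 0.602). None of these intervals reached a doubling or a halving. Without aged restricted replicate 2 the last value became -0.57 ± 0.156, and Hspa5 was then called lower in restricted aged mice (edgeR adjusted p = 0.0406). Over the 17 alternatives that adjusted p ran from 0.0406 to 0.929.

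GRP94, from Hsp90b1 (chr10:86690209-86705509, minus strand), is the HSP90 chaperone of the ER and folds integrins and Toll-like receptors. Hsp90b1 stood at 492, 556 and 522 CPM in aged restricted, 555.5, 775 and 566 CPM in aged ad libitum and 565, 551 and 576 CPM in young libraries. One aged ad libitum library, replicate 2, was high, and the other 8 libraries lay between 492 and 576 CPM. Its log2 change was 0.16 with age (95% interval -0.205 to 0.53), -0.27 with diet (-0.64 to 0.098) and -0.11 in restricted aged against young mice (-0.48 to 0.26). The edgeR adjusted p was 0.812, 0.607 and 0.906 in that order.

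The lectin chaperones came next. Calreticulin, from Calr (chr8:84841850-84846934, minus strand), is soluble and also stores calcium. Calr stood at 636, 484 and 619 CPM in aged restricted, 553, 442.5 and 446 CPM in aged ad libitum and 561, 589.5 and 655 CPM in young libraries. The freely fed aged libraries lay below the young ones, while the restricted libraries spanned nearly the whole range of both. With age the log2 fold change was -0.32 ± 0.183 (95% interval -0.70 to 0.052, edgeR adjusted p = 0.57). It was 0.27 with diet (-0.108 to 0.64, edgeR adjusted p = 0.627) and -0.06 in restricted aged against young mice (-0.43 to 0.32, edgeR adjusted p = 0.965).

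Calnexin, from Canx (chr11:50293961-50325673, minus strand), is the membrane-bound counterpart. Canx stood at 153, 251 and 189 CPM in aged restricted, 178, 149 and 143 CPM in aged ad libitum and 159, 181 and 164.5 CPM in young libraries. The groups overlapped in all 3 comparisons, and aged restricted replicate 2 was the highest library. Fitted log2 changes were -0.10 with age (95% interval -0.60 to 0.398), 0.34 with diet (-0.159 to 0.84) and 0.24 in restricted aged against young mice (-0.256 to 0.73). The edgeR adjusted p was 0.929, 0.649 and 0.812 in that order.

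**Figure D3:**
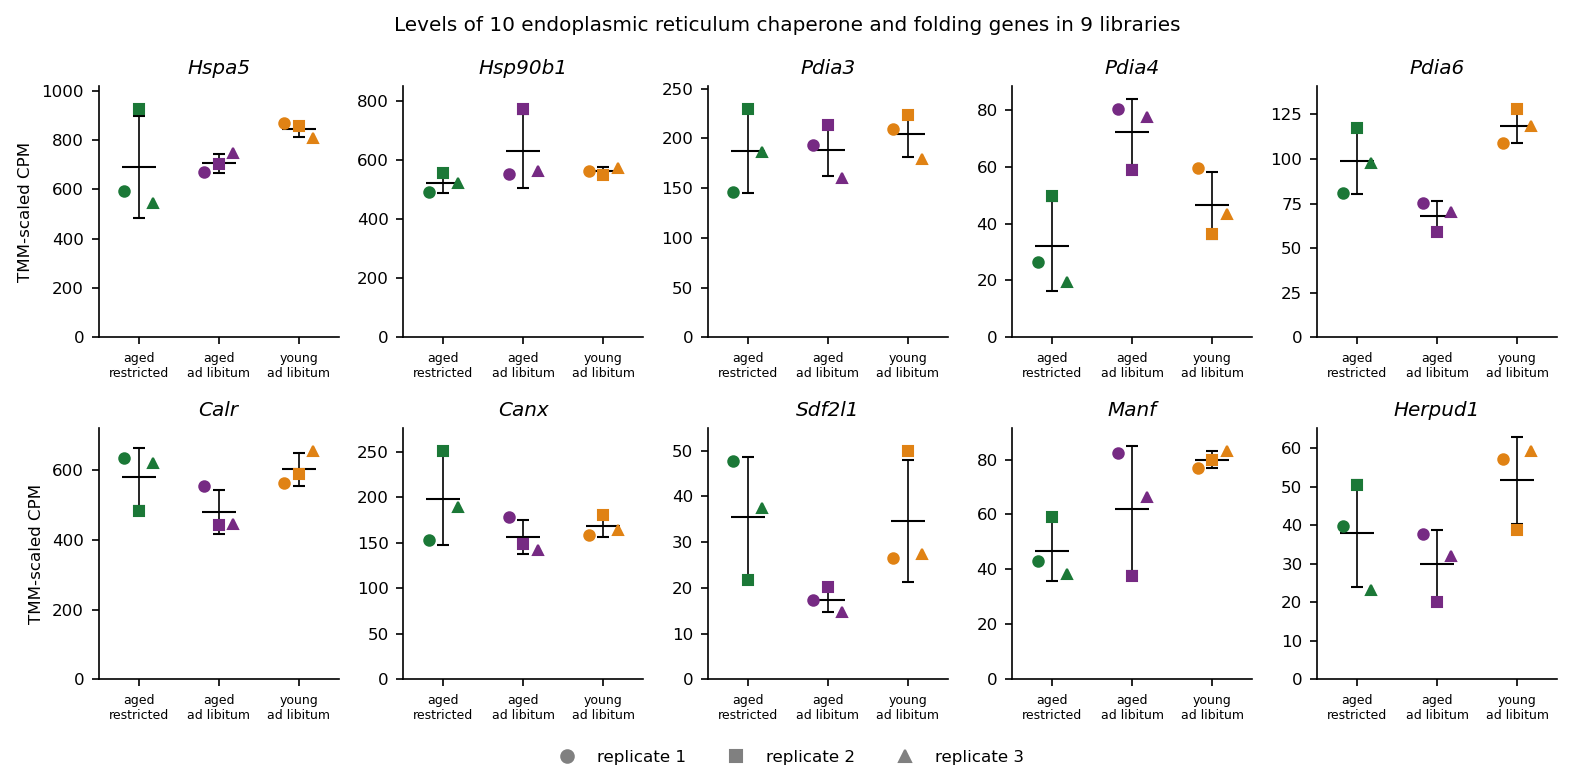
Level of each of the 10 genes in every library (points, TMM-scaled CPM) with the group mean and SD (bars), for aged restricted, aged ad libitum and young ad libitum mice. Each axis starts at 0; Pdia4 is highest in the aged ad libitum group, whereas Pdia6 and Sdf2l1 are lowest there.

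Of the disulfide isomerases, Pdia3 (chr2:121413775-121438687, plus strand), or ERp57, works with the lectin chaperones on glycoproteins. It stood at 146, 230 and 186 CPM in aged restricted, 193, 213 and 160 CPM in aged ad libitum and 209, 223 and 180 CPM in young libraries. The groups overlapped throughout. Its log2 fold change was -0.11 with age (95% interval -0.60 to 0.375), -0.01 with diet (-0.495 to 0.48) and -0.12 in restricted aged against young mice (-0.60 to 0.364). The edgeR adjusted p was 0.919, 0.995 and 0.93 in that order. With library totals the diet value turned to 0.05, so it has no settled sign. Catsper2 on the opposite strand overlaps Pdia3, with 41 counts over the 9 libraries beside 1903.

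Pdia4 (chr6:47796141-47813430, minus strand), or ERp72, has several thioredoxin-like domains and is found in complexes with BiP. Its reads were few, at 24, 76 and 22 counts in aged restricted, 79, 44 and 63 counts in aged ad libitum and 72, 45 and 49 counts in young libraries. As levels these were 26.6, 49.9 and 19.6 CPM in aged restricted, 80.4, 59 and 77.5 CPM in aged ad libitum and 59.5, 36.2 and 43.4 CPM in young libraries. All 3 restricted libraries lay below all 3 freely fed aged libraries. With diet the log2 fold change was -1.16 ± 0.392 (95% interval -1.96 to -0.35), and it did not pass adjustment (edgeR adjusted p = 0.193). Without aged restricted replicate 2 it was -1.65 and was called (edgeR adjusted p = 0.0471). Over the 17 alternatives the value ran from -1.65 to -0.89 and the adjusted p from 0.0471 to 0.504. With age Pdia4 was fitted higher, by 0.64 ± 0.384 (-0.147 to 1.43, edgeR adjusted p = 0.599), and its log2 fold change in restricted aged against young mice was -0.51 (-1.32 to 0.288, edgeR adjusted p = 0.698).

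Pdia6 (chr12:17266545-17284770, plus strand), or P5, also binds BiP and helps to switch off IRE1 signalling. Pdia6 stood at 80.8, 117.5 and 97.8 CPM in aged restricted, 75.3, 59 and 70.1 CPM in aged ad libitum and 109, 128 and 118.5 CPM in young libraries. The freely fed aged libraries were below every library of both other groups. With age the log2 fold change was -0.80 ± 0.284 (95% interval -1.38 to -0.214) and did not pass adjustment (edgeR adjusted p = 0.268). With diet it was 0.54 ± 0.285 (-0.047 to 1.12, edgeR adjusted p = 0.477), and in restricted aged against young mice -0.26 (-0.82 to 0.306, edgeR adjusted p = 0.819). Over the 17 alternatives the age value ran from -0.90 to -0.71, with adjusted p from 0.202 to 0.525. By the coordinates deposited with the counts, Atp6v1c2 on the opposite strand covers the 3′ end of Pdia6, with 0 counts over the 9 libraries beside 962. The sources used here do not say whether strand was used in counting, which adds uncertainty to Pdia6.

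Fitted values of Pdia4 and Pdia6 had opposite signs with age and with diet, and both were below 0 in restricted aged against young mice, with no call in any of the 3. Their count ratio, which needs no scaling and was chosen after the values were seen, was 0.329, 0.425 and 0.2 Pdia4 counts per Pdia6 count in aged restricted libraries. It was 1.07, 1 and 1.11 in aged ad libitum libraries and 0.545, 0.283 and 0.366 in young libraries. The freely fed aged libraries lay above all others, as did 2 of these 3 libraries in the sum of endothelial markers. The ratio averaged 0.318 ± 0.113 in aged restricted, 1.06 ± 0.0557 in aged ad libitum and 0.398 ± 0.134 in young mice (SD, n = 3 each). No test is given for it, because it was picked for its values.

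The last 3 genes are targets of the stress response. Sdf2l1 (chr16:17130138-17132383, minus strand) encodes a partner of ERdj3, a co-chaperone of BiP. It stood at 47.6, 21.65 and 37.4 CPM in aged restricted, 17.3, 20.1 and 14.8 CPM in aged ad libitum and 26.45, 49.9 and 27.4 CPM in young libraries. Every freely fed aged library was below every other library, although 20.1 CPM in aged ad libitum replicate 2 and 21.65 CPM in aged restricted replicate 2 were close. Its counts were low, from 12 to 62 per library. Fitted log2 changes were -0.99 ± 0.486 with age (95% interval -1.99 to 0.0049, edgeR adjusted p = 0.484) and 1.02 ± 0.488 with diet (0.016 to 2.02, edgeR adjusted p = 0.422). In restricted aged against young mice the value was 0.02 (-0.92 to 0.97, edgeR adjusted p = 0.997).

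MANF, from Manf (chr9:106838312-106891979, minus strand), is a secreted protein with neurotrophic activity that also binds BiP. Manf stood at 43.2, 59 and 38.2 CPM in aged restricted, 82.4, 37.5 and 66.4 CPM in aged ad libitum and 76.9, 79.7 and 83.2 CPM in young libraries. All restricted libraries lay below the narrow range of the young ones, and the freely fed aged libraries spread across both. The log2 fold change in restricted aged against young mice was -0.76 ± 0.343 (95% interval -1.47 to -0.058, edgeR adjusted p = 0.372). It was -0.35 with age (-1.06 to 0.348, edgeR adjusted p = 0.786) and -0.41 with diet (-1.12 to 0.309, edgeR adjusted p = 0.723). By the coordinates deposited with the counts, Dcaf1 on the opposite strand covers the 3′ end of Manf, and Rbm15b on the same strand overlaps it elsewhere. Over the 9 libraries the table held 181 counts for Dcaf1 and 224 for Rbm15b, beside 621 for Manf, and the sources used here do not say whether strand was used in counting, so Manf is uncertain.

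HERP, from Herpud1 (chr8:94386438-94395377, plus strand), sits in the ER membrane and assists the degradation of misfolded proteins. Herpud1 stood at 39.9, 50.5 and 23.1 CPM in aged restricted, 37.6, 20.1 and 32 CPM in aged ad libitum and 57, 38.7 and 59.3 CPM in young libraries. The freely fed aged libraries lay below the young ones, but the nearest pair, 37.6 CPM in aged ad libitum and 38.7 CPM in young mice, was close. Its log2 fold change with age was -0.78 ± 0.42 (95% interval -1.64 to 0.084, edgeR adjusted p = 0.546). It was 0.34 with diet (-0.53 to 1.2, edgeR adjusted p = 0.835) and -0.44 in restricted aged against young mice (-1.28 to 0.395, edgeR adjusted p = 0.776).

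The 95% interval lay wholly inside a doubling or halving (-1 to 1 on the log2 scale) for 5 of the 10 genes in the age comparison, 5 in the diet comparison and 7 in restricted aged against young mice. The abundant genes Hspa5, Hsp90b1, Pdia3, Calr and Canx met this in all 3 comparisons. For Pdia4, Pdia6, Sdf2l1, Manf and Herpud1 a doubling or halving lay inside the interval in at least 2 of the 3. The biological coefficient of variation fitted to each gene ran from 19.7% for Hsp90b1 to 36.7% for Sdf2l1, beside 40.5% in common over all genes.

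The profiles of the 10 genes differed in how alike they were. As a measure of likeness, the root mean square difference between the gene-centred log2 profiles of a pair over the 9 libraries was taken for all 45 pairs. Hspa5 with Pdia3, Pdia3 with Canx (both 0.203) and Hsp90b1 with Pdia3 (0.204) were the closest, and Pdia4 with Sdf2l1 (1.12) and Pdia4 with Pdia6 (0.82) the farthest. To the mean profile of the 10, Hspa5 was the nearest member (0.143) and Pdia4 (0.60) and Sdf2l1 (0.56) the most distant. That mean profile was highest in the young libraries (0.177, 0.198 and 0.164 log2) and ran from -0.22 to 0.146 in aged restricted and from -0.215 to 0.0253 in aged ad libitum libraries. Of the 5371 other genes considered, those nearest to it were Rps24 (0.0716), Rpl27a (0.0732), Rps29 (0.0734), Rps20 (0.077), Rtn4 (0.0783) and Rpl35a (0.0949). Rtn4 encodes a reticulon that shapes ER tubules, and the other 5 encode ribosomal proteins, whose reads can be shared with pseudogene copies. This measure favours genes that vary little, and a profile over 9 libraries reflects their shared depth and cell make-up as well. It also takes in counting error, which is larger for genes with few reads. Pdia4 had 22 to 79 and Sdf2l1 12 to 62 counts per library, and the part of counting error in their distances was not separated.

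**Figure D4:**
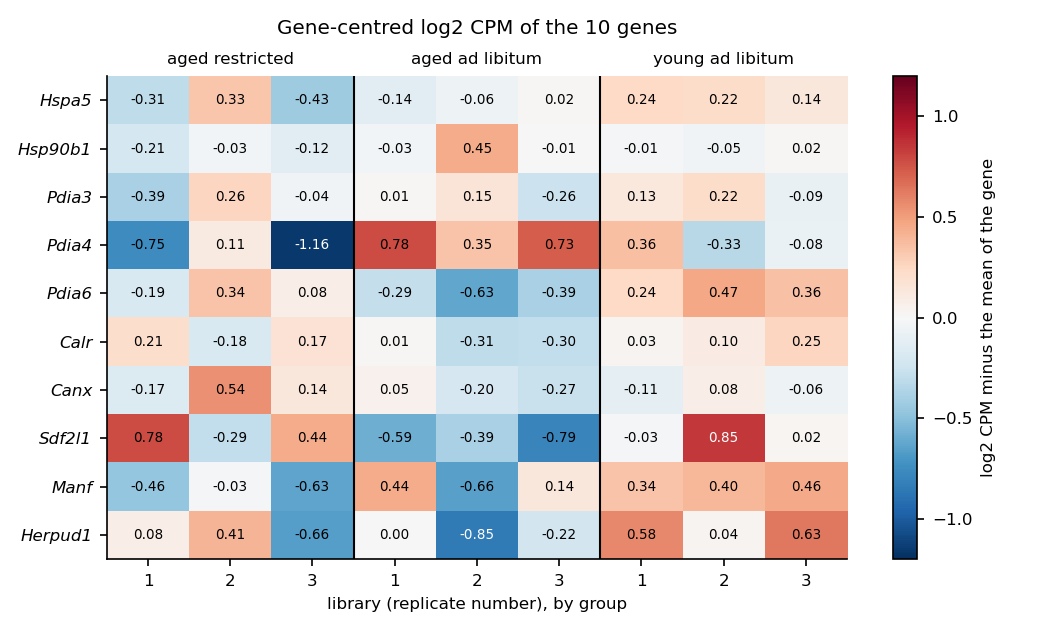
Log2 CPM of each gene minus its mean over the 9 libraries (colour and printed value), with libraries grouped as aged restricted, aged ad libitum and young ad libitum. Pdia4 runs opposite to Pdia6 and Sdf2l1 in the aged ad libitum libraries, and aged restricted replicate 2 differs from replicates 1 and 3.

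Other genes of the same pathways were read from lists of ER genes. Calls were absent from most of them in all 3 comparisons. Of the disulfide isomerases and oxidases outside the 10, 19 of 20 were tested, and 1 was called lower in restricted aged against young mice. That gene was Qsox1, a sulfhydryl oxidase that acts mainly in the Golgi and outside the cell. Qsox1 stood at 97.4, 57.1 and 116.5 CPM in aged restricted libraries and 273, 247 and 225 CPM in young libraries, which do not overlap. It fell by 1.47 ± 0.286 on the log2 scale (edgeR adjusted p = 0.00349), and it passed under all 17 alternatives, with adjusted p from 2.47e-05 to 0.0248. With age its value was -0.99 ± 0.283 (edgeR adjusted p = 0.135), and it was called lower with no filter (0.033) and without aged restricted replicate 2 (0.0349), in a range of adjusted p from 0.033 to 0.354.

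Among ER prolyl isomerases and the collagen chaperone, 7 of 9 were tested and 1 was called. Serpinh1, or HSP47, the chaperone of collagen and a product of collagen-making cells such as fibroblasts, stood at 41, 57.1 and 50.7 CPM in aged restricted and 155, 115 and 123 CPM in young libraries. It fell by 1.39 ± 0.304 on the log2 scale (edgeR adjusted p = 0.00956). The call was lost without aged restricted replicate 1, aged restricted replicate 3 or young replicate 1, and the adjusted p ran from 0.00212 to 0.0714 over the 17 alternatives. Fibroblast markers summed to 1148 ± 689 CPM in aged restricted and 1152 ± 241 CPM in young mice (SD, n = 3 each), and their part in this call was not tested.

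The translocon carries new chains into the ER, and signal peptidase and oligosaccharyltransferase process them there. All 24 of these genes were tested and 0 passed in any comparison by edgeR, but 20 were fitted lower with age, with a median of -0.295, and 18 in restricted aged against young mice, with a median of -0.243. Over all genes 50.1% and 48.9% were fitted lower. Unadjusted p-values were under 0.05 for 5 genes with age, 3 with diet and 6 in restricted aged against young mice, and DESeq2 called 0, 0 and 1. Sec61g, a small translocon subunit, was the closest to the threshold, with 437 ± 97.4 CPM in aged restricted and 719 ± 89.8 CPM in young mice (SD, n = 3 each) and a log2 fold change of -0.71 ± 0.195 (edgeR adjusted p = 0.0532). Sec61g was called lower under 7 of the 17 alternatives: DESeq2 (0.0328), no filter (0.0231), the replicate block (0.0444), the fit of those 2 groups (0.049), and without aged ad libitum replicate 1 (0.0395), aged ad libitum replicate 2 (0.0498) or aged restricted replicate 2 (0.004), all adjusted p. Over the 17 that p ran from 0.004 to 0.367. Sec61b, another subunit, had 101 ± 9.22 CPM in aged ad libitum and 183 ± 32.8 CPM in young mice, a log2 fold change of -0.87 ± 0.254 (edgeR adjusted p = 0.154).

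Sensors and transcription factors of the unfolded protein response had 0 of 14 tested genes called in each comparison by edgeR, and 0 by DESeq2. Unadjusted p-values were under 0.05 for 1, 1 and 0 genes in the order age, diet, and restricted aged against young mice. Their medians were -0.138 with age, 0.219 with diet and 0.499 in restricted aged against young mice. Xbp1, the factor spliced by IRE1, had log2 fold changes of 0.13 ± 0.40 with age, 0.37 ± 0.396 with diet and 0.50 ± 0.392 in restricted aged against young mice. Atf4, the factor translated when PERK is active, had -0.29 ± 0.217, -0.08 ± 0.217 and -0.37 ± 0.216 in the same order. Splicing of Xbp1 and translation of Atf4 cannot be read from 3′ counts. Ppp1r15a, which helps to reverse the translational block by PERK, had 135, 40 and 77.4 CPM in aged restricted and 38.7, 18.8 and 55.3 CPM in aged ad libitum libraries. These overlap, and its log2 fold change with diet was 1.14 ± 0.445 (edgeR adjusted p = 0.286). Creb3l2, a transcription factor gene of this list, had 36.4 ± 11.8 CPM in aged ad libitum and 18 ± 7.68 CPM in young mice (SD, n = 3 each). It was fitted higher with age, by 1.01 ± 0.492 (edgeR adjusted p = 0.48).

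Co-chaperones and exchange factors of BiP (9 tested), genes of the calnexin cycle (11), of ER-associated degradation (19) and of early secretory transport (16) had no call by edgeR or by DESeq2 in any comparison. From 0 to 3 genes of each of these lists had an unadjusted p under 0.05 in a comparison. Dnajc25, of the co-chaperone list, had 43.6 ± 10.1 CPM in aged ad libitum and 23.2 ± 2.11 CPM in young mice (SD, n = 3 each). It was fitted higher with age, by 0.91 ± 0.434 (edgeR adjusted p = 0.47). Derl1, a channel component of ER-associated degradation, had 88.6, 75.5 and 96.9 CPM in aged restricted and 38.7, 52.3 and 45.5 CPM in aged ad libitum libraries. These groups do not overlap, and the log2 fold change was 0.94 ± 0.336 (edgeR adjusted p = 0.227). Vcp, the ATPase that pulls proteins out of the ER membrane, had 267, 360 and 310 CPM in aged restricted and 422, 491 and 422 CPM in aged ad libitum libraries, with -0.51 ± 0.197 (edgeR adjusted p = 0.285). Lman2, a cargo lectin, had 110 ± 17.7 CPM in aged restricted, 73.8 ± 11.1 CPM in aged ad libitum and 114 ± 17.8 CPM in young mice (SD, n = 3 each), lowest in the freely fed aged group as for Pdia6.

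The cytosolic heat shock chaperones, which fold proteins outside the ER under another transcription factor, HSF1, gave calls in the same libraries. All 20 were tested. For age, 3 were called lower and 0 higher (Hspa1a, Hspa1b and Dnajb1), with a median of -0.835. In restricted aged against young mice 8 were called lower and 0 higher, with a median of -0.775, and in the diet comparison 0 were called, with a median of -0.262 (6 at an unadjusted p under 0.05, and 1 called by DESeq2). Directions with diet were mixed, with 13 genes fitted lower and 7 higher. Among those fitted higher were Hspb1 (1.82, edgeR adjusted p = 0.0708) and Hspa1a (1.13, edgeR adjusted p = 0.242). In restricted aged against young mice the 8 were Hspa1a, Hspa1b, Dnajb1, Hsph1, Hsp90aa1, Hsp90ab1, Bag3 and Fkbp4. Hsp90ab1 passed there under 7 of the 17 alternatives, Fkbp4 under 11 and Bag3 under 14. Dnajb1 lost its call for age without young replicate 2 or aged ad libitum replicate 3, and without aged ad libitum replicate 2 the count for age was 5. The 8 became 5 without young replicate 2, young replicate 3 or aged restricted replicate 1, and over all 17 alternatives they ran from 5 to 8. Hspa1b, an inducible HSP70, had 29.2 ± 8.27 CPM in aged restricted, 40.3 ± 10.3 CPM in aged ad libitum and 271 ± 60.1 CPM in young mice (SD, n = 3 each). Its log2 fold change in restricted aged against young mice was -3.23 ± 0.317 (edgeR adjusted p = 6.89e-07). Hspa1a and Hspa1b are near-identical copies, so the split of reads between them is uncertain. The cytosolic relative of GRP94, Hsp90aa1, had 1252 ± 157 CPM in aged restricted and 2325 ± 606 CPM in young mice, a log2 fold change of -0.89 ± 0.176 (edgeR adjusted p = 0.00387), beside -0.11 for Hsp90b1. Hsp90aa1 lost this call with library totals (0.0676) and without young replicate 3 (0.071), both adjusted p. The difference between these ER and cytosolic genes was not tested.

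**Figure D5:**
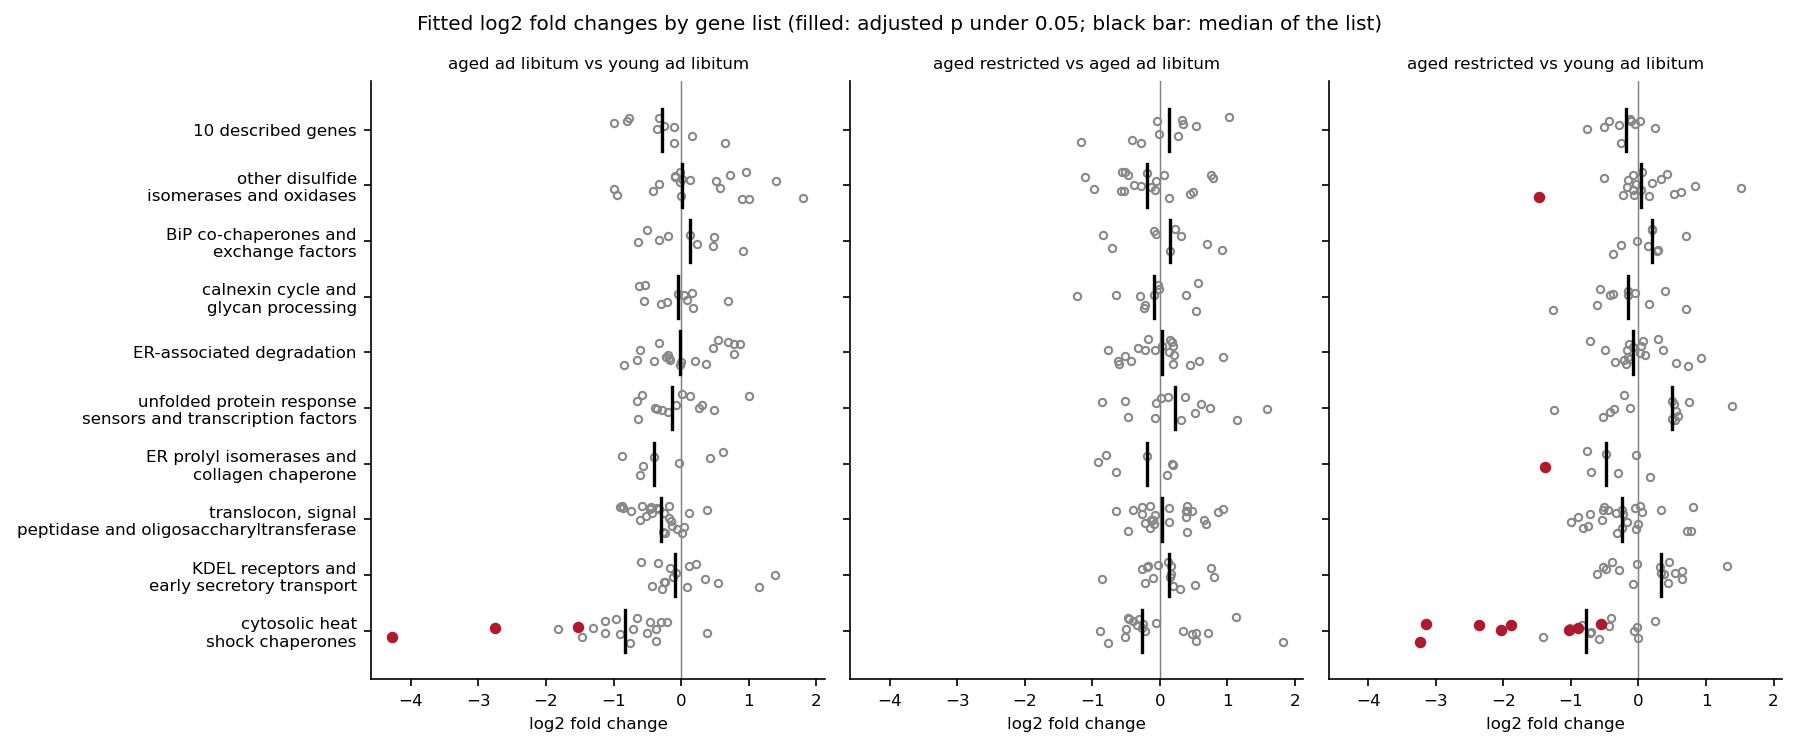
Fitted log2 fold changes of the tested genes of each list (points) in the 3 comparisons, the first-named group over the second, with the median of the list (black bar) and genes at adjusted p under 0.05 filled. Filled points are the cytosolic heat shock genes, Qsox1 and Serpinh1; the 10 described genes have none.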

How the data were processed

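The table deposited by the authors holds whole-number read counts for each gene and library, made with Trim Galore, STAR and featureCounts on GRCm38 (mm10), per the submitters' processing notes. Versions, the use of strand or of molecular identifiers, and the handling of reads with several matches are not given in the sources used here. Libraries were made with a QuantSeq 3′ kit, per the labels' protocols, so counts do not scale with transcript length, and without such identifiers PCR copies count as separate reads. Replicates are biological, per the series' design. Coordinates in the deposited table differ from GENCODE M21 (GRCm38), so gene positions are those of GENCODE, matched by Ensembl identifier, and promoters are those of RefSeq. Overlaps between genes were read from the deposited coordinates and not from GENCODE.

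Testing used edgeR 4.0.16 under R 4.3.3: filterByExpr by group with a minimum count of 10, which kept 9009 of 14418 genes with a count, TMM scaling, and robust quasi-likelihood F-tests with the 3 groups of all 9 libraries in 1 model (6 residual degrees of freedom). P-values were adjusted by Benjamini-Hochberg over the tested genes of each comparison, with a threshold of 0.05. Intervals are 95% intervals of the fitted log2 fold change. Libraries totalled 810662 to 1258575 counts, and libraries were all kept as separate replicates, since chi-square divided by its degrees of freedom was 6.03 or more for every pair within a group. Alternatives were DESeq2 1.42.0 (its size factors and its Wald test), library totals, leaving out mitochondrial genes, no filter, a filter of 30 counts in 3 libraries, a replicate block, fits of only the 2 groups compared, and leaving out each library. Applying the alternatives to the groups' overlap and to genes of the other lists was chosen after seeing the data.

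The 10 genes and all gene lists were chosen with earlier results of these data known. The text names the 10 genes, and by rule the genes of the other lists that are called or have the smallest p-values at a mean of at least 20 CPM. Outside that rule it names Xbp1, Atf4 and Hspb1, chosen after their values were seen. Dnajc3, Creld2, Ero1b and Syvn1, also on these lists, are named because their promoter windows hold an ERSE. Ddit3 is not analysed here.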

Additional observations from a re-analysis of the deposited data

How the results depend on the processing

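Of the 10 genes, 0 passed for age under all 17 alternatives, and leaving out each library gave 0 to 1 for diet and 0 to 1 for restricted aged against young mice, as given for Pdia4 and Hspa5. Counts over all genes moved more. For age, where 26 genes passed, the DESeq2 Wald test gave 88, no filter 126, a fit of only those 2 groups 58, and leaving out each library 2 to 91 (2 without young replicate 2, 9 without young replicate 3, 3 without aged ad libitum replicate 3, 91 without aged restricted replicate 2). For diet, where 85 passed, library totals gave 50, the Wald test 164, no filter 224, a fit of only those 2 groups 43, and leaving out each library 35 (aged ad libitum replicate 2) to 157 (aged restricted replicate 2). For restricted aged against young mice, where 175 passed, no filter gave 286 and leaving out each library 98 (young replicate 2) to 242 (aged restricted replicate 2). The cause was not tested. Calls for the cytosolic heat shock genes ranged from 2 to 5 for age, 0 to 1 for diet and 5 to 8 for restricted aged against young mice when each library was left out.

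With the replicate number as a block the counts over all genes were 49 for age, 133 for diet and 223 for restricted aged against young mice, and those of the 10 genes stayed at 0. Correlations of deviations ran from -0.0281 to 0.0772 between same-numbered libraries and from -0.0768 to 0.047 between differently numbered ones. T cell marker sums were highest in replicate 1 and lowest in replicate 2 of each group. Whether the numbers mark a shared factor was not tested, and the main fit did not pair the samples.

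Of 510 values of the 10 genes under the alternatives, 488 kept their direction and side of the threshold, 20 changed sign and 2 became called. With age, Hsp90b1 ranged from -0.0165 to 0.229 over the left-out libraries. For diet, Hspa5 was 0.0278 with library totals and -0.309 to 0.118 over the left-out libraries, and Pdia3 was 0.0483 with library totals, 0.0239 without mitochondrial genes, 0.0152 with no filter and -0.183 to 0.15 over the left-out libraries. In restricted aged against young mice the left-out libraries gave -0.299 to 0.0293 for Pdia3, -0.126 to 0.0555 for Calr and -0.237 to 0.383 for Sdf2l1. Among genes of the other lists, Tmed9 for diet was 0.0044 without mitochondrial genes, 2.08e-05 with no filter and -0.179 to 0.253 over the left-out libraries. The same ranges were -1.66 to 0.0314 for Sdf2 and -0.313 to 0.118 for Tmed2 with age, -0.105 to 0.0823 for Ganab and -0.318 to 0.0144 for Sec61g with diet, and -0.0418 to 0.957 for Sdf2 and -0.181 to 0.0723 for Lman2 in restricted aged against young mice.

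Pdia4, Sdf2l1, Manf and Herpud1 had 12 to 99 counts per library, a fitted biological coefficient of variation from 28.1% to 36.7%, and intervals that admit a doubling or a halving in at least 2 of the 3 comparisons. How much of that width is counting error and how much spread between replicates was not separated. A group of 3 libraries is too small to test for outliers.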

Other observations

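The ERSE was also found in the promoter windows of 32 genes other than those described, of which 7 were abundant enough to be tested. These were Hnrnpa3, Pan2, Ero1b, Dnajc3, Creld2, Syvn1 and Xlr3c, among them the BiP co-chaperone gene Dnajc3 and Syvn1, a ubiquitin ligase of ER-associated degradation. In each comparison 0 of the 7 passed edgeR's test, 0 passed that of DESeq2 and 5 were fitted lower. An unadjusted p under 0.05 was seen for 1 gene with age and 0 in the other comparisons. Median log2 fold changes were -0.193 with age, -0.147 with diet and -0.246 in restricted aged against young mice. The most abundant of them, Hnrnpa3, an RNA-binding protein gene, had a log2 fold change of -0.61 ± 0.249 with age (edgeR adjusted p = 0.357). Dnajc3 had -0.193 ± 0.35 with age, -0.06 ± 0.352 with diet and -0.255 ± 0.346 in restricted aged against young mice. The 2 fitted higher with age were Creld2 (0.961 ± 0.589) and Ero1b (1.41 ± 1.23), both also on the list of disulfide isomerases and oxidases. With 7 genes, several of them at under 10 CPM on average, these values are a description only.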
